A study of Mus musculus with 12 samples.

Results

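The comparison described here set lipopolysaccharide (LPS) treatment against the resting state in mouse bone marrow-derived macrophages that had all received a control siRNA. It used the 6 libraries labelled siControl of the series' 12: 3 of resting cells (M0) and 3 of LPS-treated cells (M1). The counts came in 2 tables, 1 per state, which were joined on gene symbol, and 12164 of 24421 genes passed a filter on low counts and were tested. Every resting library stood in one table and every LPS library in the other, and the labels name no batch, so anything that differed between the tables cannot be told apart from LPS. A change "with LPS" below is therefore a change between those groups of libraries.

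The cells came from male C57BL/6J mice aged 8 weeks and were grown from marrow precursors into macrophages in culture. The control siRNA, a short double-stranded RNA with no intended target, was carried by both groups, so these resting cells are transfected cells, not untouched ones. The other 6 libraries of the series carried an siRNA against Ehd1 (siEhd1) in the same 2 states. PolyA-selected RNA was sequenced. The labels used here give neither the dose of LPS, nor the time in it, nor the siRNA sequences. The labels do not say whether the 3 libraries of a group came from separate mice or cultures, so the p-values rest on the spread between libraries alone, and that spread may be technical.

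LPS is a glycolipid of the outer membrane of Gram-negative bacteria. CD14 hands it to the receptor pair TLR4 and MD-2, which signals through the adaptor MyD88 to NF-kB and AP-1 and, from endosomes, through TRIF to the interferon regulatory factors. Macrophages respond with a first set of transcription factors, cytokines and feedback inhibitors, then with genes induced by the interferon and cytokines they secrete, and over hours they shift glucose use, lipid handling and cell division.

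The promoters of the genes that moved together can be read for the motifs of these factors. The lines below show the stretch around the motif in 4 chemokine or cytokine genes with an NF-kB consensus, chosen as those with the largest increase among list members with a match. Each is given 5′ to 3′ on the gene's own strand from RefSeq (GRCm38.p6), and capitals mark the motif. The Cxcl3 stretch is chr5:90786004-90786063 (plus strand), that of Il6 chr5:30013045-30013104 (plus strand), that of Cxcl1 chr5:90891150-90891209 (plus strand) and that of Cxcl2 chr5:90903778-90903837 (plus strand).
Cxcl3: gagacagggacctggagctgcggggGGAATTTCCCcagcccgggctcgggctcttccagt
Il6: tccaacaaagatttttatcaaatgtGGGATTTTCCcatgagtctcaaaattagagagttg
Cxcl1: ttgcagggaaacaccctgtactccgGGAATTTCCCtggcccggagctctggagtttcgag
Cxcl2: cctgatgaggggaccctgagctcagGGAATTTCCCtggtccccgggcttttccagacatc
The consensus was searched on both strands in the 250 bases before the start site. It was found in 29 of 79 promoters of the cytokine, chemokine and NF-kB lists (36.71%), in 106 of 811 promoters of genes higher by the 2-fold test defined below (13.07%), in 9.003% of promoters of genes lower by that test and in 8.779% of the promoters of all tested genes. A match is only a run of letters in this window, and these shares describe the promoters without a test.

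The next lines show the interferon-stimulated response element, searched as GAAANNGAAA on both strands, in 4 genes of the interferon lists. The stretches are chr3:142496744-142496803 (Gbp5, plus strand), chr1:174031855-174031914 (Ifi205, minus strand), chr19:34599428-34599475 (Ifit1bl1, minus strand) and chr4:156200850-156200909 (Isg15, minus strand). Capitals again mark the motif.
Gbp5: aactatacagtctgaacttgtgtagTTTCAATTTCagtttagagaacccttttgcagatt
Ifi205: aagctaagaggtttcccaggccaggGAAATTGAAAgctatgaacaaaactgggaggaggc
Ifit1bl1: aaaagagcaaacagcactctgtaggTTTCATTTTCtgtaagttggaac
Isg15: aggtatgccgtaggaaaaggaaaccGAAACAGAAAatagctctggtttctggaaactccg
The element stood in 28 of 59 promoters of the interferon-stimulated and interferon-inducible GTPase lists (47.46%). It stood in 66 of 811 promoters of genes higher by the 2-fold test (8.138%), in 1.715% of those of lower genes and in 2.783% of the promoters of all tested genes.

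The totals of the 6 libraries lay between 21093450 and 22050969 counts, and 14191 to 14674 genes had a count in each. The 10 genes with most counts took 10.98% to 11.5% of a resting library and 11.2% to 12.8% of an LPS library. In a principal component analysis of all 12 libraries the first component held 88.3% of the variance and separated the resting from the LPS libraries. Within a group, the counts of each pair of libraries spread wider than counting error (chi-square over degrees of freedom 4.15 to 24.8), and no pair was identical. The median coefficient of variation between libraries was 4.98% in resting and 5.96% in LPS cells.

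The cells carried the markers of macrophages. All 10 macrophage markers stood at 5 CPM or more (counts scaled per 1e6 of the library with TMM factors) in resting cells, and their summed level was 30066 to 31436 CPM in the resting and 37167 to 43818 CPM in the LPS libraries. Of 10 T, NK and B cell markers, 6 had 0 counts in all 6 libraries, Cd3e, Cd8a and Ncr1 among them, and only Cd4 was tested. That list summed to 6.75 to 9.16 CPM at rest and 3.95 to 5.43 CPM with LPS. The erythroid, mast cell and megakaryocyte markers, 6 of 10 at 0 throughout, summed to 1.01 to 1.18 CPM at rest and 0.333 to 0.496 CPM with LPS. The neutrophil markers summed to 20.2 to 22.3 CPM at rest and 41.4 to 70.8 CPM with LPS, most of it Mmp8 (from 19.9 to 58.4 CPM), the only called member of the 3 tested. Of the 10 listed, 9 were found among the gene symbols and 1 of these was at 0 throughout. Ly6g was not found, so its level is unknown. The dendritic cell markers summed to 131.9 to 146.0 CPM and 605.8 to 714.0 CPM, most of it Bst2 (from 135 to 655 CPM), which interferon also induces. The stromal and endothelial markers summed to 28.4 to 29.3 CPM and 32.1 to 49.4 CPM. The part of these cell types in the results was not tested. In bulk libraries, fewer cells of a type and less RNA per cell cannot be told apart.

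LPS moved most of the measured transcriptome, mostly by small amounts. With edgeR's quasi-likelihood test and a Benjamini-Hochberg adjusted p below 0.05, 4237 genes were called higher with LPS (34.8% of those tested) and 4132 lower (34.0%), together 68.8%. The median absolute log2 fold change over all tested genes was 0.40, and the groups' libraries did not overlap for 8608 genes (70.8%). A stricter test asked for a change beyond 2-fold (edgeR's glmTreat). It called 831 genes higher (6.83%) and 953 lower (7.83%). By point estimate, 475 called genes rose and 564 fell by at least 4-fold, 163 and 139 by at least 16-fold, and 65 and 35 by at least 64-fold. Increases outnumbered decreases at 16-fold and 64-fold, and decreases outnumbered increases at 2-fold, 4-fold and 8-fold. With library totals alone, without TMM factors, the median log2 fold change of all genes shifted by -0.20 and the split became 2826 higher against 5860 lower (32.5% of called genes higher, against 50.6%). Changes are given relative to the TMM scale.

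**Figure D1:**
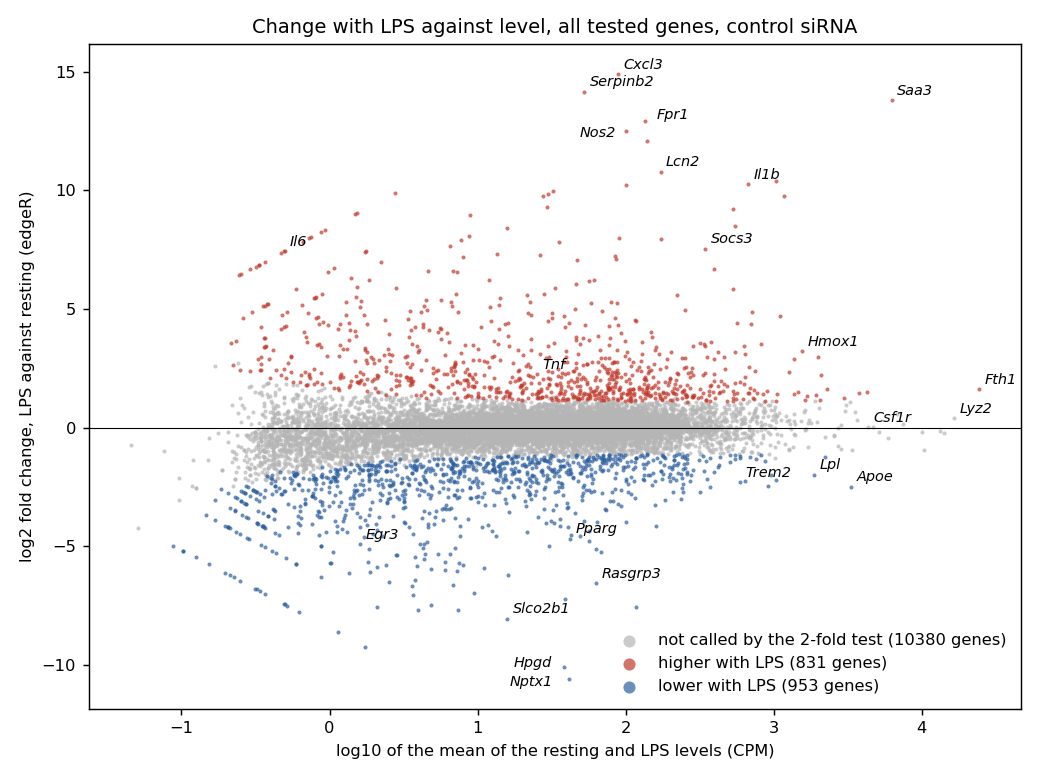
Each point is 1 of 12164 tested genes, with the log10 of the mean of its resting and LPS levels in CPM on the x axis and the edgeR log2 fold change of LPS against resting on the y axis. Red and blue points passed the 2-fold test (831 higher, 953 lower), and the slanted rows of points at low levels are genes with 0 counts in one group, whose fold depends on the prior count.

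The 15 genes with the largest increases stood at 4 CPM or less in every resting library. They code for chemokines (Cxcl3, Ccl5), interleukin 1 (Il1a, Il1b), acute phase and antimicrobial proteins (Saa3, Lcn2), receptors for formylated peptides (Fpr1, Fpr2), the scavenger receptor Marco, the enzymes Nos2, Irg1 and Cd38, the protease inhibitor Serpinb2, the interleukin 23 receptor Il23r and the activating myeloid receptor Tarm1. Cxcl3 (chr5:90786103-90789600 in GRCm38, the build of every position below) had 0 counts in all 3 resting libraries and stood at 131, 202 and 196 CPM with LPS, at least 4021-fold higher when the resting group is set to 3 counts in all. Serpinb2 (chr1:107511423-107535478), plasminogen activator inhibitor 2, also had 0 resting counts and stood at 94.2, 108 and 114 CPM with LPS, at least 2404-fold higher. Il23r rose from 0 counts to 5.28, 5.45 and 5.80 CPM, at least 126-fold.

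Saa3 (chr7:46711998-46715700), a serum amyloid A protein made by macrophages, stood at 0.440, 1.89 and 0.307 CPM in the resting and 15604, 12006 and 9882 CPM in the LPS libraries. It went from trace amounts to 1 of the 10 most abundant transcripts (log2 fold change 13.79, SE 0.39, edgeR adjusted p = 5.2e-10). The fold rests on few resting counts and was 15.01 on the log2 scale without resting library 2. Fpr1 (chr17:17876471-17883940), a receptor that steers phagocytes towards bacterial peptides, had 2 counts at rest and stood at 296, 258 and 261 CPM with LPS, a ratio of 9276 (95% exact interval 2568 to 76604, counting error only). Its neighbour Fpr2 (chr17:17887824-17893952) stood at 0.176, 0.219 and 0.0878 CPM and then 230.0, 181 and 190.2 CPM (log2 fold change 10.23, SE 0.15, edgeR adjusted p = 4.1e-21). Cd38, an enzyme that consumes NAD, went from 0.0880, 0.0877 and 0 CPM to 277, 278 and 278 CPM (log2 fold change 12.07, SE 0.14, edgeR adjusted p = 1.8e-23). Lcn2, lipocalin 2, which binds bacterial iron carriers, went from 0.176, 0.219 and 0.176 CPM to 359, 343 and 329.7 CPM (log2 fold change 10.78, SE 0.13, edgeR adjusted p = 1.8e-23). The remaining members of this group, Tarm1 (9.86) and Marco (9.74, or 10.95 without resting library 2), were below 0.15 CPM in every resting library and above 49 CPM in every LPS library.

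The 15 largest decreases took genes from moderate levels to almost none. Nptx1 (chr11:119538719-119547753), a neuronal pentraxin, stood at 56.0, 91.7 and 101 CPM at rest and had 3 counts in all with LPS, a ratio of 1701 (95% exact interval 582 to 8249.6, counting error only) between resting and LPS cells. Hpgd (chr8:56294585-56321043), the enzyme that inactivates prostaglandins, fell from 86.3, 69.0 and 74.8 CPM to 0.148, 0.0496 and 0 CPM (log2 fold change -10.08, SE 0.30, edgeR adjusted p = 3.0e-12, and -11.32 without LPS library 1). Slco2b1 (chr7:99657804-99711340), an organic anion transporter, fell from 32.1, 31.1 and 31.8 CPM to 0.0493, 0.149 and 0.143 CPM (log2 fold change -8.05, SE 0.21, edgeR adjusted p = 7.7e-18). The groups did not overlap for any of these. Mamdc2, an extracellular matrix protein, fell from 233 to 1.23 CPM (log2 fold change -7.55), and Rasgrp3, an activator of Ras and Rap, fell from 125 to 1.32 CPM (-6.56). The orphan receptor Gprc5c fell by 7.20, the lipase inhibitor Angptl4 by 7.70, the glycosyltransferase Galnt9 by 6.95, the transcription factor Sox4 by 6.20 and the calcitonin receptor partner Ramp1 by 6.03, all on the log2 scale. Zbtb16, a zinc finger transcription factor, fell by 6.42 (-7.08 without LPS library 3) and Tox2, a nuclear HMG-box protein, by 6.65 (-7.89 without LPS library 1). Pgm5, Hr and Prr33 had 2, 3 and 3 counts with LPS, and their resting to LPS ratios were 242 (95% exact interval 66.7 to 2004, counting error only), 197 (95% exact interval 67.0 to 957, counting error only) and 148 (95% exact interval 50.4 to 721, counting error only).

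The 36 gene lists, each counted in full beside the background shares above, moved in different ways. No list was tested as a set.

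**Figure D2:**
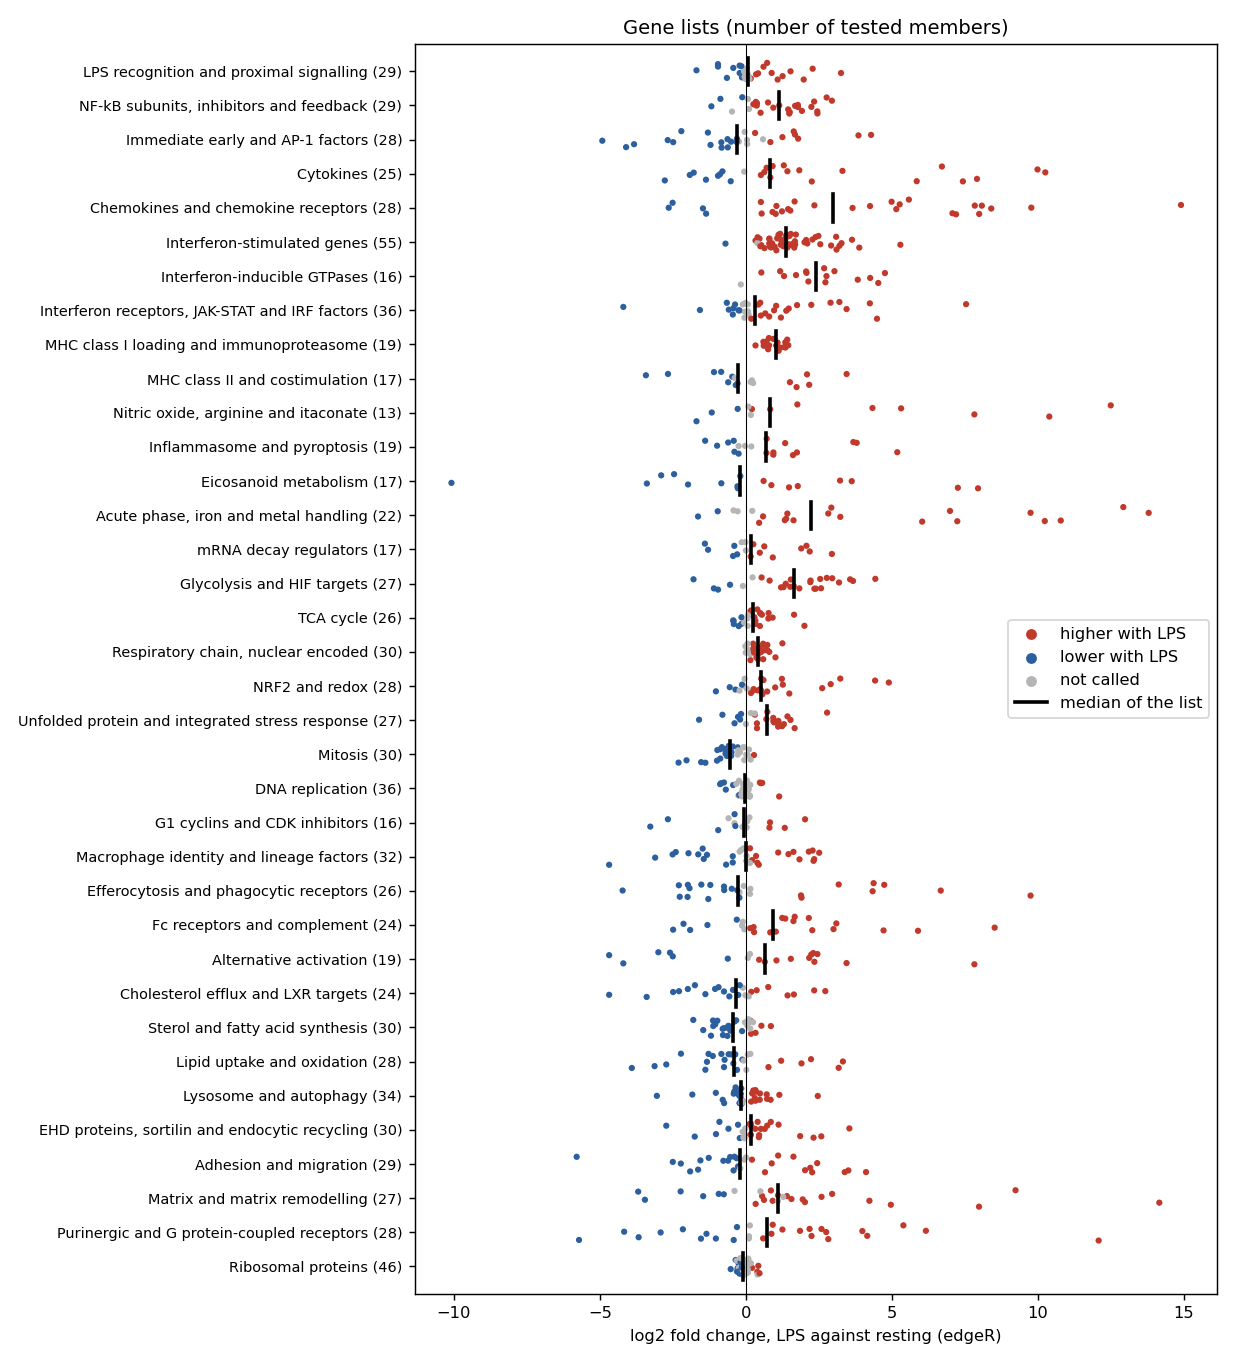
Each point is 1 tested member of a gene list, placed by its edgeR log2 fold change of LPS against resting (x axis) and coloured by its call; black bars are list medians and numbers in brackets are tested members. The medians run from -0.55 (mitosis) to 3.00 (chemokines and their receptors).

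LPS recognition and proximal signalling held calls in both directions at shares near those of all tested genes. Of 29 tested members of LPS recognition and proximal signalling, 12 were higher and 9 lower, against 34.8% higher and 34.0% lower over all tested genes, and 8 were not called. The median log2 fold change was 0.07 (against -0.01 over all tested genes). With library totals alone, 11 were higher and 14 lower and the median was -0.12. Tlr4, the LPS receptor, stood at 121, 114 and 113 CPM at rest and 143, 147 and 152 CPM with LPS (log2 fold change 0.35, SE 0.05, edgeR adjusted p = 6.3e-06). That is a change of under 1.5-fold, although the groups did not overlap. Cd14, the co-receptor, stood at 452, 457 and 486 CPM and 1298, 1402 and 1319 CPM (log2 fold change 1.53, SE 0.07, edgeR adjusted p = 6.5e-14). Irak3, an inhibitory kinase of the pathway, was the most increased member, from 29.7 to 284 CPM (3.25). Tlr2 (2.28) and Tlr1 (1.98), which pair to bind bacterial lipopeptides, also passed the 2-fold test, as did the adaptor Myd88 (1.25, named after its values were seen). Tlr9, the receptor for CpG DNA and also named after its values were seen, fell from 63.1 to 32.5 CPM (log2 fold change -0.96, SE 0.14, edgeR adjusted p = 7.4e-05).

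Most genes of the NF-kB pathway and its feedback rose. Of 29 tested members of that list 23 were higher (79.3%), 3 lower and 3 not called, and 14 passed the 2-fold test upwards, with a median of 1.14. With library totals alone 22 were higher and 5 lower. N4bp1, an inhibitor of NF-kB signalling, stood at 58.3, 54.9 and 53.5 CPM and then 432, 415 and 435 CPM (log2 fold change 2.94, SE 0.05, edgeR adjusted p = 1.8e-20). The adaptor Traf1 rose from 16.7 to 113 CPM (2.76), the inhibitor Nfkbie from 26.6 to 134 CPM (2.33) and the ubiquitin ligase Birc3 from 69.1 to 261 CPM (1.92). Among members named after their values were seen, the inhibitor Nfkbia (2.44) and the deubiquitinase Tnfaip3 (2.24) rose, while the subunit Rel fell from 33.6 to 18.4 CPM (-0.87).

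Immediate early genes, which are switched on within minutes of a stimulus and then off again, were more often lower than higher: 15 lower, 8 higher and 5 not called of 28 tested, with a median of -0.31. Ier3 rose from 7.58 to 148 CPM (4.28), the AP-1 partner Batf from 2.06 to 29.9 CPM (3.85) and Junb from 145 to 258 CPM (0.84). Atf3, a repressor of inflammatory genes, fell from 469 to 202 CPM (log2 fold change -1.21, SE 0.07, edgeR adjusted p = 2.1e-11). The lowest members, named after their values were seen, were zinc finger and orphan nuclear receptor factors. Egr2 stood at 54.4, 71.2 and 75.0 CPM at rest and 3.80, 5.06 and 5.23 CPM with LPS (log2 fold change -3.83, SE 0.16, edgeR adjusted p = 2.5e-10), Nr4a1 at 18.4, 23.8 and 24.3 CPM and 0.592, 1.64 and 1.62 CPM (log2 fold change -4.10, SE 0.21, edgeR adjusted p = 9.5e-11). Egr1 (-2.49) and Egr3 (-4.92) fell with them.

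Among secreted cytokines the interleukin 1 genes showed the largest called increases, while Il6 and Il12b drew few counts. Of 25 tested cytokines 16 were higher, 8 lower and 1 not called, with a median of 0.84. Il1b (chr2:129364570-129371139) stood at 0.528, 1.80 and 0.966 CPM at rest and 1277, 1356 and 1393 CPM with LPS (log2 fold change 10.25, SE 0.18, edgeR adjusted p = 2.3e-15). Il1a stood at 0.0440, 0.0439 and 0.0878 CPM and 54.5, 64.7 and 75.9 CPM (log2 fold change 9.98, SE 0.23, edgeR adjusted p = 1.0e-16). Il1rn, which codes for the antagonist of their receptor (named after its values were seen), stood at 18.2 ± 5.77 CPM and 1049 ± 197 CPM (SD, n = 3 each; log2 fold change 5.85, SE 0.29, edgeR adjusted p = 8.3e-08). Agonists and antagonist thus rose together. Tnf (chr17:35199381-35202007), the classical early cytokine, stood at 8.94, 9.30 and 7.77 CPM and 41.4, 39.0 and 43.8 CPM (log2 fold change 2.25, SE 0.08, edgeR adjusted p = 2.0e-15), a rise of 4.77-fold. Il6 had 0 counts at rest and 0.740, 1.09 and 1.14 CPM with LPS, 61 counts in all and at least 22.6-fold higher. The groups did not overlap for any of these. Il12b had 0 counts at rest and 22 with LPS, and Ifnb1, interferon beta, 0 and 2, both below the filter and not tested. The costimulatory ligand Tnfsf9 rose from 1.84 to 18.3 CPM (3.30).

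Il10, the main anti-inflammatory cytokine, moved the other way. It stood at 1.63, 1.58 and 2.02 CPM at rest and 0.296, 0.694 and 0.380 CPM with LPS (log2 fold change -1.92, SE 0.30, edgeR adjusted p = 8.9e-06), low in every library and without overlap. Igf1 and Vegfa, which code for growth factors and were named after their values were seen, were also lower: Igf1 fell from 507 to 274 CPM (-0.89) and Vegfa from 128 to 66.2 CPM (-0.96).

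**Figure D3:**
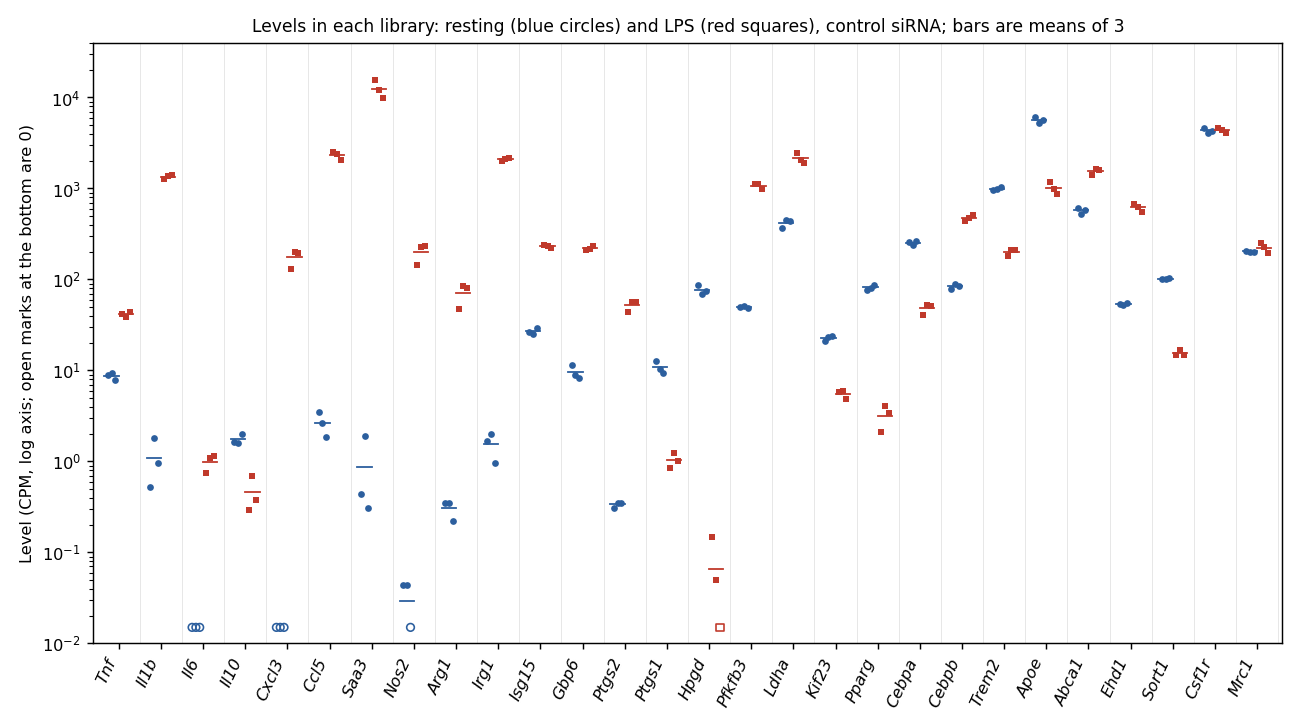
Levels of 28 named genes in each library in CPM on a log axis, with blue circles for the 3 resting and red squares for the 3 LPS libraries, bars at the group means and open marks at the bottom for 0. The groups lie apart for all genes shown except Csf1r and Mrc1, and Il10, Ptgs1, Hpgd, Kif23, Pparg, Cebpa, Trem2, Apoe and Sort1 are the genes whose LPS libraries lie below the resting ones.

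Chemokines rose almost as a class. All 28 tested chemokines and chemokine receptors were called, 24 higher and 4 lower, 19 and 4 of them beyond 2-fold, with a median of 3.00, the highest of the 36 lists. The genes lie in clusters. On chromosome 5 the neutrophil-attracting CXC genes sit between Cxcl5 (chr5:90759360-90761624) and Cxcl2 (chr5:90903871-90905938), with Pf4 (chr5:90772435-90773383) and Cxcl3 between them. Pf4, platelet factor 4, stood at 8.23, 9.78 and 9.30 CPM at rest and 441, 485 and 379 CPM with LPS (log2 fold change 5.58, SE 0.09, edgeR adjusted p = 4.9e-20), while the megakaryocyte markers were near 0 as given above. Cxcl1 stood at 0.264, 0.263 and 0.176 CPM and 7.50, 8.57 and 9.42 CPM (log2 fold change 5.15, SE 0.24, edgeR adjusted p = 1.1e-13), and Cxcl2 rose from 2.80 to 88.8 CPM (4.99). Cxcl5 had 0 counts at rest and rose at least 30.0-fold. Cxcl1, Cxcl2 and Cxcl5 were named after their values were seen. Cxcl10 (chr5:92346638-92348889), which draws T cells and is induced by interferon, stood at 3.39, 3.38 and 4.96 CPM and 65.7, 71.0 and 86.3 CPM (log2 fold change 4.25, SE 0.18, edgeR adjusted p = 1.2e-09).

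The CC chemokines that draw monocytes form a second cluster, on chromosome 11. Ccl2 (chr11:82035571-82037453) stood at 1.80, 4.56 and 6.85 CPM at rest and 129.9, 177 and 202 CPM with LPS (log2 fold change 5.26, SE 0.40, edgeR adjusted p = 2.3e-06). Ccl12 (chr11:82101845-82103400) rose from 0.0585 to 17.4 CPM (8.08) and Ccl8 (chr11:82115185-82116799) from 0.0879 to 31.6 CPM (8.40, or 9.31 without resting library 1). Ccl5 (chr11:83525778-83530518), also a target of interferon signalling, stood at 3.52, 2.63 and 1.84 CPM and 2535, 2383 and 2071 CPM (log2 fold change 9.77, SE 0.25, edgeR adjusted p = 4.3e-11). Cx3cr1, the fractalkine receptor, fell from 98.9, 82.5 and 82.8 CPM to 14.9, 16.0 and 15.5 CPM (log2 fold change -2.51, SE 0.08, edgeR adjusted p = 8.6e-16), and Ccr2, the receptor for Ccl2 (named after its values were seen), fell from 79.4 to 30.8 CPM (-1.36).

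Interferon-stimulated genes rose as a body, although interferon beta itself was at 2 counts. Of 55 tested members 53 were higher (96.4%), 34 of them beyond 2-fold, with a median of 1.38. The exceptions, named after their values were seen, were AI607873 (Ifi207), which fell from 466 to 287 CPM (-0.70), and Oas2, which was not called (171, 163 and 127 CPM against 172, 173 and 259 CPM, log2 fold change 0.39, SE 0.25, edgeR adjusted p = 0.19). Ifi205, a DNA sensor whose promoter is shown above, stood at 18.5, 18.8 and 20.5 CPM and 222, 246 and 249 CPM (log2 fold change 3.63, SE 0.07, edgeR adjusted p = 2.9e-20). Isg15, a ubiquitin-like protein, stood at 26.4, 25.2 and 29.6 CPM and 236, 231 and 224 CPM (log2 fold change 3.09, SE 0.08, edgeR adjusted p = 7.4e-18). Zbp1, a sensor of Z-form nucleic acids, rose from 35.2 to 302 CPM (3.10) and Slfn1 from 8.29 to 122 CPM (3.88). Reads of near-identical copies such as Ifit3 and Ifit3b could be split by the counting, so single values there are uncertain.

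The interferon-inducible GTPases, which attack the vacuoles of microbes, also rose: 15 of 16 tested were higher, 14 beyond 2-fold, with a median of 2.41, and Gbp8, named as the exception after its values were seen, was not called. Gbp6 stood at 11.6, 8.86 and 8.34 CPM and 213, 218 and 233 CPM (log2 fold change 4.53, SE 0.09, edgeR adjusted p = 8.1e-20). Gbp10 (4.76), Gbp5 (3.83) and Gbp7 (2.72) rose as well, and these paralogs are also close in sequence. In the signalling layer, 19 of 36 interferon receptors, JAK-STAT and IRF factors were higher and 9 lower, with a median of 0.30, or 18 and 14 with a median of 0.11 with library totals alone. Irf7, the master factor of the interferon response, stood at 329, 301 and 349 CPM and 2294, 2509 and 2482 CPM (log2 fold change 2.90, SE 0.07, edgeR adjusted p = 1.6e-18). The kinase Jak2 (3.20) and the feedback inhibitor Socs1 (4.49) rose. Socs3, which limits interleukin 6 signals and was named after its values were seen, stood at 3.39, 5.17 and 2.50 CPM and 725, 713 and 620.0 CPM (log2 fold change 7.54, SE 0.14, edgeR adjusted p = 2.3e-15). Irf4, a factor of alternative activation, fell from 9.73, 8.02 and 8.51 CPM to 0.444, 0.545 and 0.428 CPM (log2 fold change -4.20, SE 0.19, edgeR adjusted p = 5.3e-14).

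All 19 tested genes of MHC class I loading and the immunoproteasome were higher, 7 beyond 2-fold, with a median of 1.04, and 18 were called higher with library totals alone. The peptide pump Tap1 stood at 122, 106 and 111 CPM and 301, 310.3 and 312 CPM (log2 fold change 1.45, SE 0.06, edgeR adjusted p = 6.0e-15), and the immunoproteasome subunit Psmb8 at 95.5, 95.9 and 96.9 CPM and 258, 245 and 231 CPM (log2 fold change 1.35, SE 0.05, edgeR adjusted p = 2.7e-15). Psme2 (1.41) and Psmb10 (1.18) followed. H2-Q6, H2-Q7 and H2-T22 were listed at 0 in all 6 libraries, and reads of these similar genes may have been lost or moved between copies. Of 17 tested genes of MHC class II and costimulation, 5 were higher and 8 lower (median -0.29, but 0.12 without the filter on low counts and 0.15 with DESeq2). Ciita, the switch of class II transcription, fell from 55.0, 39.5 and 34.5 CPM to 7.15, 6.54 and 6.56 CPM (log2 fold change -2.67, SE 0.16, edgeR adjusted p = 5.7e-09), and H2-Eb1 (named after its values were seen) fell from 78.6 to 36.8 CPM (-1.09). Cd83 fell from 51.6, 49.1 and 53.0 CPM to 3.70, 4.91 and 5.66 CPM (log2 fold change -3.42, SE 0.12, edgeR adjusted p = 4.6e-14). The inhibitory ligand Cd274 (PD-L1) rose from 59.6, 55.8 and 56.6 CPM to 544, 664 and 666 CPM (log2 fold change 3.45, SE 0.08, edgeR adjusted p = 6.4e-19), and the costimulator Cd40 rose from 4.90 to 20.9 CPM (2.09).

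Arginine and itaconate metabolism held some of the largest increases. Nos2 (chr11:78920787-78960254), inducible nitric oxide synthase, had 2 counts at rest and stood at 143, 230.1 and 231 CPM with LPS, a ratio of 6894 (95% exact interval 1908 to 56929, counting error only). Irg1 (Acod1 in newer annotation), which makes the antimicrobial metabolite itaconate, stood at 1.67, 2.02 and 0.966 CPM and 1983, 2083 and 2181 CPM (log2 fold change 10.38, SE 0.12, edgeR adjusted p = 1.8e-23). Arg1 (chr10:24915221-24927484), which competes with Nos2 for arginine and is best known from alternative activation, rose too, from 0.352, 0.351 and 0.219 CPM to 46.9, 84.3 and 81.1 CPM (log2 fold change 7.82, SE 0.41, edgeR adjusted p = 1.0e-07). Arg2 rose from 1.10 to 43.9 CPM (5.31) and the cofactor enzyme Gch1 from 16.6 to 56.4 CPM (1.76), while Sat1, which breaks down polyamines, fell from 242 to 108 CPM (-1.17). Of the 13 tested members 8 were higher and 3 lower, with a median of 0.83. Among 19 inflammasome and pyroptosis genes 10 were higher and 6 lower (median 0.70). Those that rose include the sensor Mefv (from 10.6 to 147 CPM, 3.79), the interleukin 18 binding protein Il18bp (3.68), the sensor Nlrp3 (from 60.9 to 186 CPM, 1.61) and the membrane rupture protein Ninj1 (1.34).

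Eicosanoid genes changed in both directions. All 17 tested members were called, 8 higher and 9 lower, with a median of -0.19. Ptgs2 (cyclooxygenase 2) stood at 0.308, 0.351 and 0.351 CPM and 44.3, 56.0 and 56.5 CPM (log2 fold change 7.25, SE 0.17, edgeR adjusted p = 5.2e-18) and Ptges, the terminal synthase, at 1.28, 1.45 and 1.49 CPM and 391, 341 and 311 CPM (log2 fold change 7.95, SE 0.11, edgeR adjusted p = 2.2e-21). Pla2g4a, which releases arachidonic acid, rose from 7.66 to 71.5 CPM (3.22) and Pla2g7, which degrades platelet-activating factor, from 56.8 to 699.6 CPM (3.62). Ptgs1 (cyclooxygenase 1), named after its values were seen, fell from 12.6, 10.3 and 9.48 CPM to 0.838, 1.24 and 0.999 CPM (log2 fold change -3.39, SE 0.19, edgeR adjusted p = 1.3e-12), and Alox5, the leukotriene-forming lipoxygenase named likewise, from 11.1 to 1.48 CPM (-2.90). Hpgd, the catabolic enzyme described above, was the lowest member of the list.

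Acute phase, iron and metal genes rose in 17 of 22 tested cases, 15 beyond 2-fold, with 2 lower and a median of 2.22. Ceruloplasmin (Cp), a copper-bearing ferroxidase, stood at 1.19, 1.58 and 1.40 CPM and 94.5, 86.8 and 92.9 CPM (log2 fold change 6.03, SE 0.09, edgeR adjusted p = 1.2e-21). Hmox1, heme oxygenase 1, stood at 301, 289 and 311 CPM and 2573, 2980.1 and 2888 CPM (log2 fold change 3.23, SE 0.07, edgeR adjusted p = 2.6e-19). The ferritin heavy chain Fth1 stood at 11308, 11520.5 and 12849.7 CPM and 41102, 41191 and 28074 CPM, with LPS library 3 well below the other LPS libraries (log2 fold change 1.63, SE 0.12, edgeR adjusted p = 2.9e-09). The iron exporter Slc40a1 (ferroportin), named after its values were seen, fell from 86.3, 66.4 and 79.9 CPM to 18.6, 26.2 and 29.7 CPM (log2 fold change -1.64, SE 0.15, edgeR adjusted p = 3.0e-06). Of 28 NRF2 and redox genes 20 were higher and 4 lower (median 0.51), or 16 and 7 with library totals alone. The mitochondrial superoxide dismutase Sod2 stood at 46.8, 46.1 and 46.1 CPM and 1528, 1355 and 1241 CPM (log2 fold change 4.89, SE 0.07, edgeR adjusted p = 1.8e-21), and the peroxiredoxin Prdx5 (2.90) and glutathione reductase Gsr (2.61) rose.

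Most glycolytic genes rose. Of 27 tested glycolytic and HIF target genes 21 were higher (77.8%), 19 beyond 2-fold, and 4 lower, with a median of 1.64. Pfkfb3, which drives glycolytic flux, stood at 50.3, 51.0 and 48.5 CPM and 1119, 1115 and 992 CPM (log2 fold change 4.43, SE 0.07, edgeR adjusted p = 1.2e-21). The transcription factor Hif1a stood at 80.7, 79.8 and 88.8 CPM and 776, 738 and 757 CPM (log2 fold change 3.19, SE 0.06, edgeR adjusted p = 2.1e-20). Its known targets Bnip3 (from 21.3 to 145 CPM, 2.77) and Ero1l (from 39.4 to 182 CPM, 2.21) rose. Gapdh, often used as a reference gene, stood at 683, 749.7 and 800.2 CPM and 3585, 3479.9 and 3225 CPM (log2 fold change 2.20, SE 0.08, edgeR adjusted p = 2.4e-15). Among members named after their values were seen, the glucose carrier Slc2a1 (2.57), lactate dehydrogenase Ldha (2.34) and the lactate exporter Slc16a3 (3.57) rose. Other HIF targets named likewise were lower: Ndrg1 fell from 150.1 to 43.3 CPM (-1.79) and the glucose carrier Slc2a3 from 18.9 to 8.84 CPM (-1.10). Eno1 had 0 counts at rest and 8 with LPS, while its near-identical copy Eno1b had 3586 and 13457 (log2 fold change 2.06), so neither value is certain.

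Most nuclear genes of the respiratory chain rose by small amounts. Of 30 tested 24 were higher, 0 lower and 6 not called, but 1 passed the 2-fold test and the median was 0.42. With library totals alone 16 were higher and 3 lower. Cox5a stood at 52.8, 53.3 and 58.2 CPM and 142, 139 and 109 CPM (log2 fold change 1.25, SE 0.08, edgeR adjusted p = 2.1e-10), Atp5o rose from 42.6 to 85.9 CPM (1.01), Atp5b from 365 to 635 CPM (0.80) and Cox5b from 47.4 to 74.7 CPM (0.66). Of 26 TCA cycle genes 15 were higher and 6 lower (median 0.25), or 11 and 9 with library totals alone. The malic enzyme Me1 (1.65) and pyruvate carboxylase Pcx (2.00) passed the 2-fold test, and Mdh2 (0.91) and Me2 (0.77) were higher by less.

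Of 27 genes of the unfolded protein and integrated stress responses 18 were higher and 6 lower (median 0.73). The disulfide isomerases Pdia4 (from 70.9 to 225 CPM, 1.67) and Pdia6 (1.42), the secreted stress protein Manf (1.53) and the factor Atf4 (from 72.0 to 155 CPM, 1.10) rose. Of 17 mRNA decay regulators 9 were higher and 5 lower with a median of 0.16, or 8 lower with a median of -0.03 with library totals alone. Zc3h12a (regnase 1), which degrades cytokine mRNAs, rose from 29.8 to 125 CPM (2.07). Arid5a, which protects them, rose from 12.6 to 57.3 CPM (2.18). Zcchc11 (Tut4), a uridylating enzyme, fell from 76.1 to 28.7 CPM (-1.40).

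Most mitosis genes fell while most replication genes did not pass the test. Of 30 mitosis genes 19 were lower (63.3%, against 34.0% of all genes), 1 was higher and 10 were not called, with a median of -0.55. Cenpa, the centromeric histone, stood at 23.6, 27.3 and 22.9 CPM at rest and 5.47, 4.46 and 4.95 CPM with LPS (log2 fold change -2.31, SE 0.10, edgeR adjusted p = 1.9e-14), and Kif23, a motor of the dividing cell's midzone, at 21.0, 23.3 and 24.1 CPM and 5.82, 6.00 and 4.90 CPM (log2 fold change -2.03, SE 0.10, edgeR adjusted p = 2.2e-13). Ccnb2 fell from 10.1 to 3.50 CPM (-1.53) and Bub1b from 15.9 to 9.62 CPM (-0.72). Mki67, the usual proliferation marker and named after its values were seen, was not called (47.1, 64.5 and 72.1 CPM against 65.9, 68.6 and 70.8 CPM, log2 fold change 0.16, SE 0.13, edgeR adjusted p = 0.31); resting library 1 was the lowest of the 6, and without resting library 3 it was called higher (0.30). Of 36 DNA replication genes 4 were higher, 6 lower and 26 not called, with a median of -0.03. The list had 10 lower members and a median of -0.19 without resting library 1, and 12 lower and a median of -0.22 with library totals alone. The median was 0.07 without resting library 3 and 0.02 without LPS library 1. Mcm6, a helicase subunit, fell from 76.6 to 42.5 CPM (-0.85) and the licensing factor Cdt1 from 36.6 to 19.8 CPM (-0.88), while E2f1 (0.51) and Pola2 (0.56) rose. E2F sites, searched on both strands as TTTCGCGC or TTTGGCGC, stood in 7 of 62 promoters of these lists (11.29%, against 1.257% of the promoters of all tested genes). They stood in 0.3699% of promoters of genes higher by the 2-fold test and in 0.3215% of those of genes lower by it. The stretches of Mcm6 (chr1:128359720-128359777, minus strand) and Pola1 (chrX:93632261-93632318, minus strand) are shown from RefSeq (GRCm38.p6) with the motif in capitals. They were taken among called members of these lists with a match, in either direction, and both genes fell. Pola1, chosen after its values were seen, fell from 9.60, 11.5 and 12.5 CPM to 6.86, 6.64 and 7.32 CPM (log2 fold change -0.69).
Mcm6: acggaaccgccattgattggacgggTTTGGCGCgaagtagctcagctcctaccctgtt
Pola1: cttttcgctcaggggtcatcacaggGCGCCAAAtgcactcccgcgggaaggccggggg
Among 16 G1 cyclins and CDK inhibitors 4 were higher and 5 lower, against 34.8% higher and 34.0% lower over all tested genes. The median was -0.08. With library totals alone 4 were higher and 9 lower, with a median of -0.27. The cyclins split: Ccnd1, induced by growth factor signals and named after its values were seen, fell from 45.6, 60.9 and 74.3 CPM to 6.51, 10.4 and 11.5 CPM (log2 fold change -2.67, SE 0.25, edgeR adjusted p = 8.4e-06), while Ccnd2 (2.03) and Ccnd3 (1.33) rose. The inhibitor Cdkn1c fell from 11.1 to 1.14 CPM (-3.27) and Cdkn1a rose from 177 to 309 CPM (0.81).

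Genes of macrophage identity held calls in both directions. Of 32 tested 14 were higher, 12 lower and 6 not called, against 34.8% higher and 34.0% lower over all tested genes. The median was 0.02, or -0.18 with library totals alone. Csf1r, the receptor for the growth factor that maintains macrophages, stood at 4649, 4078 and 4276 CPM at rest and 4609.6, 4418 and 4056 CPM with LPS, overlapping (log2 fold change 0.01, SE 0.07, edgeR adjusted p = 0.91). With library totals alone it was called lower by a small amount (-0.19). Pparg, a lipid-sensing nuclear receptor, fell from 76.7, 80.6 and 87.5 CPM to 2.12, 4.01 and 3.38 CPM (log2 fold change -4.68, SE 0.12, edgeR adjusted p = 9.9e-17), and Id3 from 39.2, 35.9 and 38.2 CPM to 4.09, 4.71 and 4.33 CPM (log2 fold change -3.11, SE 0.09, edgeR adjusted p = 2.9e-17). Cebpa and Cebpb, a pair of C/EBP transcription factors named after their values were seen, moved in opposite directions. Cebpa fell from 257, 239 and 264 CPM to 41.1, 52.1 and 50.6 CPM (log2 fold change -2.40, SE 0.08, edgeR adjusted p = 1.7e-15), and Cebpb rose from 77.7, 89.9 and 84.4 CPM to 443, 479 and 509.8 CPM (log2 fold change 2.51, SE 0.09, edgeR adjusted p = 1.1e-12). Nr1h3 (LXR alpha) rose from 28.2 to 142 CPM (2.34) and Tfec from 13.3 to 64.6 CPM (2.28). The surface markers Adgre1 (F4/80) and Itgam (CD11b) rose, from 2013 to 5524 CPM (1.46) and from 1119.8 to 3456 CPM (1.63).

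Receptors for debris and microbes moved in both directions. Of 26 tested efferocytosis and phagocytic receptors 8 were higher, all beyond 2-fold, and 14 lower, with a median of -0.26. Clec4e (Mincle), which binds mycobacterial lipids, stood at 7.18, 9.47 and 6.50 CPM and 853, 718 and 785 CPM (log2 fold change 6.67, SE 0.10, edgeR adjusted p = 1.2e-19), Clec4n (Dectin 2), a receptor of fungal sugars, rose from 4.99 to 101 CPM (4.34) and Marco is given above. Trem2, a lipid and debris receptor, fell from 960.0, 974 and 1026 CPM to 179.6, 213 and 209.9 CPM (log2 fold change -2.30, SE 0.06, edgeR adjusted p = 1.9e-17). Of the genes of apoptotic cell uptake named after their values were seen, the receptor Axl (-1.99) and its ligand Gas6 (-1.93) fell, and the related receptor Mertk was not called (111, 90.1 and 94.1 CPM against 91.7, 93.2 and 94.7 CPM, log2 fold change -0.08, SE 0.07, edgeR adjusted p = 0.35). With library totals alone Mertk was called lower (-0.27).

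Fc receptors and complement were more often higher: 16 of 24, with 5 lower and a median of 0.93, or 13 and 8 with library totals alone. Factor B (Cfb), of the alternative complement pathway, stood at 3.43, 2.76 and 2.81 CPM and 1166, 1074 and 1059 CPM (log2 fold change 8.51, SE 0.10, edgeR adjusted p = 1.8e-23) and its stabiliser properdin (Cfp) at 133, 131 and 139 CPM and 1232, 1139.8 and 1065 CPM (log2 fold change 3.10, SE 0.06, edgeR adjusted p = 1.5e-19). C3, the central complement component, named after its values were seen, rose from 80.6 to 2109.8 CPM (4.71). The high affinity Fc receptor Fcgr1 rose from 235, 236 and 233 CPM to 1006, 1054 and 1074 CPM (log2 fold change 2.15, SE 0.05, edgeR adjusted p = 1.5e-18), and the inhibitory Fcgr2b from 74.4, 85.0 and 78.8 CPM to 659.7, 624 and 619.6 CPM (log2 fold change 3.00, SE 0.06, edgeR adjusted p = 9.4e-20).

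Genes named for alternative activation did not move together: 11 of 19 were higher and 6 lower, with a median of 0.65. Il4ra, the receptor for interleukin 4, stood at 108, 110.3 and 99.9 CPM and 1257, 1156 and 1056 CPM (log2 fold change 3.44, SE 0.07, edgeR adjusted p = 1.5e-19), and the histone demethylase Kdm6b rose from 12.5 to 61.8 CPM (2.30). Arg1 rose and Irf4 and Pparg fell, as given above. The mannose receptor Mrc1 was not called (206, 202 and 202 CPM against 250.3, 227 and 194 CPM, log2 fold change 0.14, SE 0.10, edgeR adjusted p = 0.22); without LPS library 3 it was called higher (0.23). Osteoclast markers were lower in 6 of 8 tested cases and higher in 2, against 34.0% lower over all tested genes. Their median was -1.84, but -0.49 without the filter on low counts and -0.50 with DESeq2, which include more genes of low count. The fusion factor Ocstamp fell from 2.30 to 0.114 CPM, the integrin Itgb3 from 15.9, 14.9 and 16.2 CPM to 0.247, 0.496 and 0.0951 CPM (-5.79, or -6.48 without LPS library 2) and Nfatc1 from 94.8 to 60.8 CPM (-0.64). The phosphatase Acp5 rose from 5.49 to 47.2 CPM (3.10).

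Lipid genes fell more often than they rose. Of 30 genes of sterol and fatty acid synthesis 18 were lower (60.0%, against 34.0% of all genes) and 5 higher, with a median of -0.46 and 2 lower beyond 2-fold. The higher calls came to 3 without resting library 1 or without LPS library 1, and to 2 with library totals alone. They came to 7 without LPS library 3. Msmo1 stood at 43.5, 52.2 and 48.7 CPM and 24.6, 24.9 and 23.8 CPM (log2 fold change -0.98, SE 0.06, edgeR adjusted p = 2.5e-11), Dhcr7 fell from 26.8 to 12.3 CPM (-1.12) and Scap, the escort of the sterol-sensing factor, from 99.6 to 57.3 CPM (-0.80). Mvd rose from 17.9 to 32.5 CPM (0.85).

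Of 24 genes of cholesterol efflux and LXR targets 14 were lower and 7 higher. The median was -0.35, and -0.65 without the filter on low counts and -0.67 with DESeq2, which include more genes of low count. It was -0.55 with library totals alone and -0.24 without LPS library 3. The cholesterol exporter Abca1 stood at 613, 530.1 and 577 CPM and 1414, 1627 and 1578 CPM (log2 fold change 1.43, SE 0.07, edgeR adjusted p = 6.3e-14), higher with its regulator Nr1h3. Apoe (chr7:19696109-19699188), which codes for apolipoprotein E, moved the other way, from 6112, 5261 and 5631 CPM to 1166, 991 and 865 CPM (log2 fold change -2.49, SE 0.10, edgeR adjusted p = 6.5e-13). Cyp27a1, which makes a sterol ligand of LXR and was named after its values were seen, fell from 83.2, 71.9 and 63.9 CPM to 7.55, 6.34 and 6.85 CPM (log2 fold change -3.40, SE 0.11, edgeR adjusted p = 6.3e-14). The lipid droplet coat Plin2 fell from 1264 to 483 CPM (-1.39).

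Of 28 genes of lipid uptake and oxidation 18 were lower and 6 higher (median -0.41). The scavenger receptor Msr1 rose from 96.9, 120.3 and 112 CPM to 957, 988 and 1027 CPM (log2 fold change 3.17, SE 0.08, edgeR adjusted p = 1.1e-16). The fatty acid receptor Cd36 was not called. It stood at 599, 909.7 and 992 CPM at rest and 645, 1027 and 1108 CPM with LPS (log2 fold change 0.15, SE 0.24, edgeR adjusted p = 0.59), and its libraries varied more within a group than between groups. In both states its level rose in the order of the replicate numbers, which the labels do not describe as pairs. Lipa, the lysosomal acid lipase, fell from 1662, 1688 and 1810.2 CPM to 317, 387 and 400.1 CPM (log2 fold change -2.22, SE 0.08, edgeR adjusted p = 6.3e-16), and lipoprotein lipase Lpl (named after its values were seen) from 2559.8, 3212 and 3242 CPM to 472, 812 and 987 CPM (log2 fold change -1.99, SE 0.24, edgeR adjusted p = 5.4e-05).

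Ehd1, the target of the series' other siRNA, rose and Sort1 fell. Ehd1 (chr19:6276725-6300096), an ATPase of endocytic recycling, stood at 53.3, 52.1 and 54.4 CPM at rest and 678, 631 and 550.2 CPM with LPS (log2 fold change 3.54, SE 0.08, edgeR adjusted p = 7.6e-19). Sort1 (chr3:108284082-108361511), the sorting receptor sortilin, stood at 101, 102 and 104 CPM and 14.8, 16.7 and 14.7 CPM (log2 fold change -2.73, SE 0.08, edgeR adjusted p = 2.8e-17). The LPS effect was also compared between the siRNAs, and it differed for 735 genes (6.04% of those tested). Sort1 was one of them, with a smaller decrease with siEhd1 (difference 0.41, adjusted p = 0.037). Of 30 genes of endocytic recycling 18 were higher and 7 lower (median 0.17), or 13 and 12 with a median of -0.03 with library totals alone. The small GTPases Rab32 (from 47.5 to 236 CPM, 2.31) and Rab20 (from 6.11 to 36.6 CPM, 2.58) rose, and the paralog Ehd4, named after its values were seen, fell from 535 to 285 CPM (-0.91). Of 34 lysosome and autophagy genes 15 were higher and 17 lower (median -0.15), or 10 and 19 with a median of -0.35 with library totals alone. Cathepsin C (Ctsc) rose from 145, 149 and 139.6 CPM to 831, 783 and 771 CPM (log2 fold change 2.46, SE 0.06, edgeR adjusted p = 1.7e-18) and Ctsz from 1182 to 2610.1 CPM (1.14), while Ctsf (-1.84) and the autophagy protein Gabarapl1 (-1.03) fell.

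Of 29 tested adhesion molecules 12 were higher and 14 lower, against 34.8% higher and 34.0% lower over all tested genes. The median was -0.20, and with library totals alone 11 were higher and 17 lower with a median of -0.39. Icam1 stood at 78.7, 77.5 and 76.2 CPM and 406, 371 and 342 CPM (log2 fold change 2.27, SE 0.06, edgeR adjusted p = 2.1e-17). The integrin chains Itgb5 (from 634 to 215 CPM, -1.56) and Itga6 (from 298 to 95.8 CPM, -1.64) fell with Itgb3. Matrix and remodelling genes were higher in 17 of 27 tested cases and lower in 6, with a median of 1.10. The membrane protease Mmp14 stood at 1.63, 2.46 and 1.23 CPM and 1153, 1028 and 1019 CPM (log2 fold change 9.23, SE 0.13, edgeR adjusted p = 3.2e-20), and Mmp25 rose from 0.278 to 8.83 CPM (4.96). The protease inhibitor Timp2 fell from 744 to 269.7 CPM (-1.46) and Timp1, named after its values were seen, rose from 0.528, 1.05 and 0.527 CPM to 145, 204 and 187 CPM (log2 fold change 7.98, SE 0.20, edgeR adjusted p = 1.5e-12). The elastase Mmp12, named likewise, fell from 781, 1195 and 1209.6 CPM to 135, 243 and 299 CPM (log2 fold change -2.24, SE 0.30, edgeR adjusted p = 1.4e-04). Of 28 purinergic and G protein-coupled receptors and related enzymes 15 were higher and 10 lower (median 0.73). The adenosine receptor Adora2b rose from 1.48 to 26.4 CPM (4.15), while the ADP receptor P2ry1 (from 20.3 to 1.12 CPM, -4.17) and the ATP-degrading Entpd1 (CD39; from 289 to 64.7 CPM, -2.16) fell.

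Abundant and reference genes set the scale of these changes. Of 46 tested ribosomal protein genes 4 were higher, 14 lower and 28 not called (median -0.09), or 3 and 30 with library totals alone. Without LPS library 1, 22 were lower and the median was -0.17. These counts are uncertain because processed copies could share their reads. Actb stood at 2652, 2701 and 2863 CPM and 4612, 4515 and 4014 CPM (log2 fold change 0.68, SE 0.06, edgeR adjusted p = 7.1e-09). Of the most abundant transcripts, lysozyme Lyz2 rose from 14232 to 18669 CPM (0.39) and pyruvate kinase Pkm from 2194 to 6285 CPM (1.52). The glycoprotein Gpnmb fell from 13679 to 7068 CPM (-0.95), the pore protein Mpeg1 from 6856 to 5016 CPM (-0.45) and cathepsin B (Ctsb) by 0.21 on the log2 scale. Psap was not called (-0.16), although it was called lower with library totals alone (-0.35) and without LPS library 2 (-0.25).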

How the data were processed

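The authors deposited raw read counts per gene symbol in 2 tables, 1 for resting and 1 for LPS-treated cells. Per the submitters' processing notes, the genome build was mm10, and the tools named, with no role given, are STAR 2.7.6a, Trim Galore 0.6.3, cutadapt, FastQC 0.10.1, R 4.4.2, DESeq2 1.46.0 and featureCounts 2.20.0. No source used here gives the annotation, the strand setting or the treatment of multimapping reads, so near-identical copies and overlapping or antisense genes are uncertain. Every column belonged to a labelled sample (0 unused columns).

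The tables were joined on gene symbol. All 12 libraries were fitted with 4 group means in edgeR 4.0.16 (limma 3.58.1, R 4.3.3): filterByExpr, TMM factors, robust quasi-likelihood F tests, Benjamini-Hochberg adjustment at 0.05, and glmTreat for changes beyond 2-fold. The fit left 8 residual degrees of freedom. Adjusted p-values in the text come from this fit, over all 12164 genes. DESeq2 1.42.0 was an alternative. The steps were tested on simulated counts in which few genes changed, none of them at low counts, and every gene had the same dispersion. That setting does not cover changes in most genes or genes with few counts. A gene with 0 counts in one group has a bound computed with 3 counts for that group, and one with 1 to 3 counts a ratio with a 95% exact interval. Both cover counting error only. PCR copies were not marked by molecular identifiers, as far as the sources used here state.

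Genes were named by rule: the 15 largest changes in each direction (called, at least 5 CPM in the higher group, libraries not overlapping, and predicted genes, pseudogenes, mitochondrial, histone and ribosomal genes left out), the 4 called members of each list with the smallest p, a fixed set of LPS response, macrophage, lipid and reference genes with Ehd1 and Sort1, the 10 with the largest share of counts in each state and the 5 with the smallest p for the siRNA difference. Other named genes are said to be named after their values were seen. The members, lists and tests were chosen with earlier results of these data known. Replicate numbers were not used as pairs. Promoter sequences come from RefSeq (GRCm38.p6), which covered 9316 of the tested genes, and positions from GENCODE annotation of GRCm38. Some genes are not reported here.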

Additional observations from a re-analysis of the deposited data

Results flagged for a closer look

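Each LPS effect was also estimated in the 6 libraries with siEhd1, and the difference between the effects (siEhd1 minus siControl, log2) was tested in the same edgeR model. It was called for 735 of 12164 genes (6.04%) at an adjusted p below 0.05, 379 upwards and 356 downwards, and for 473 genes without resting siControl library 1. Among the genes named in the report it was called for 55, listed here with the difference. The alternatives below followed 224 named genes. The naming took 5 genes by the smallest p of this same difference, and others after their values were seen. The number called among named genes therefore cannot be set against the 6.04%. A positive value means that the log2 fold change with LPS was higher with siEhd1 than with siControl, and a negative value that it was lower. With siEhd1, 7062 of the 8369 genes called with siControl were called in the same direction and 32 in the opposite one. By list, the difference was called for 42 of 55 tested interferon-stimulated genes, 9 of 16 interferon-inducible GTPases and 19 of 30 mitosis genes. It was called for 0 of 30 respiratory chain genes, 0 of 19 inflammasome genes and 1 of 46 ribosomal protein genes. Directions are given below for named genes only. Groups of 3 libraries are too small for the screen for single outlying libraries, which was not run.

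For genes of the interferon and presentation lists, the difference was positive for Slfn1 (1.13), Zbp1 (1.04), Isg15 (0.92), Irf7 (0.81), Gbp6 (0.68), Bst2 (0.61), Gbp5 (0.60), Ifi205 (0.59), AI607873 (0.57) and Tap1 (0.33). For genes of pathogen recognition, NF-kB, transcription factors and cytokines, the difference was positive for Tlr2 (0.41), Cx3cr1 (0.40), Rel (0.36) and N4bp1 (0.26) and negative for Pf4 (-0.62), Atf4 (-0.51), Tfec (-0.48), Nfkbie (-0.43), Tnf (-0.41), Tnfaip3 (-0.34), Junb (-0.32) and Tlr1 (-0.27). For genes of metabolism, the difference was positive for Irg1 (1.16), Arg2 (1.13), Ndrg1 (0.36) and Sat1 (0.36) and negative for Adora2b (-1.15), Pla2g4a (-1.08), Me1 (-0.55), Ldha (-0.51), Slc16a3 (-0.49), Pla2g7 (-0.39), Gsr (-0.38) and Hif1a (-0.34). For genes of lipids, uptake and complement, the difference was positive for Apoe (1.04), Fcgr1 (0.92), C3 (0.63), Mertk (0.53), Gas6 (0.53), Nr1h3 (0.45), Trem2 (0.43), Abca1 (0.41), Fcgr2b (0.38), Plin2 (0.38) and Axl (0.35) and negative for Cfp (-0.55). For genes of division, adhesion and the remaining lists, the difference was positive for Mamdc2 (1.81), Timp2 (0.49), Gpnmb (0.42), Lyz2 (0.41), Sort1 (0.41), Itgb5 (0.35) and Itga6 (0.35) and negative for Mki67 (-1.12) and Bub1b (-0.63). These differences are between the same 12 libraries and share the confounding of table and LPS.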

How the results depend on the processing

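The counts of genes called higher and lower with LPS stayed within 1.5 times their values of 4237 and 4132 under every alternative run: TMM against DESeq2's size factors or library totals alone, no filter on low counts, only the 6 siControl libraries, a replicate block, DESeq2's Wald test and leaving out each of the 6 libraries. Higher calls ranged from 2826 to 4362 and lower calls from 3866 to 5860, and the 2-fold test gave 697 to 888 and 758 to 1202. Library totals alone gave the fewest higher and the most lower calls, no filter on low counts the most higher calls, and leaving out LPS library 2 the fewest lower calls. None of the genes named in the text that were called reversed its direction under any of these alternatives. The replicate block gave 4178 higher and 4083 lower calls, 829 and 951 by the 2-fold test, and 637 differences between siRNAs. Whether the replicate numbers mark pairs is not given by the labels. Over 8909 genes, deviations from the group means correlated at -0.05, -0.14 and -0.21 for same-numbered libraries. For libraries of unlike number the correlations ran from -0.08 to 0.20. These values cannot decide it, because deviations from a mean of 3 libraries depend on each other. Some genes, such as Cd36, stood in the order of the numbers in both states, and others, such as Csf1r, did not. Leaving out each library in turn gave 473 to 783 differences between siRNAs, and the fit of the 6 siControl libraries gives no value for them. Genes near the threshold changed their call under at least 1 alternative, as given beside Mki67, Mrc1, Csf1r, Mertk and Psap. Depth limits the folds of genes with few counts in one state, which are given as bounds or ratios with counting intervals.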

Other observations

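A set of genes went between near silence and moderate expression. With below 0.5 CPM in all 3 libraries of one state and at least 5 CPM in all 3 of the other, 36 tested genes were switched on and 31 switched off with LPS. Rasgrp1, an activator of Ras, stood at 0.0440, 0.0439 and 0.176 CPM at rest and 59.3, 58.1 and 57.9 CPM with LPS (log2 fold change 9.29, SE 0.16, edgeR adjusted p = 1.3e-20, and 10.20 without resting library 3), while its paralog Rasgrp3 was among the 15 largest decreases. Nrg1, the growth factor neuregulin 1, had 2 counts at rest and stood at 17.5, 17.2 and 18.3 CPM with LPS, a ratio of 603 (95% exact interval 167 to 4988, counting error only). Both genes were chosen after their values were seen.

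The direction of change varied with the resting level. When the tested genes were divided into 4 equal parts by their resting level, the lowest part held 731 genes called higher and 1041 called lower, the second 1030 and 961, the third 1304 and 920 and the highest 1172 and 1210. The 2-fold test called 370 genes higher and 355 lower in the lowest part and 151 and 234 in the highest. Since the resting level enters both measures, these counts are a description only.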
